A study of Mus musculus with 6 samples.

Results

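The ETS transcription factor genes linked to ERK signaling, Etv1, Etv4, Etv5, Etv6, Ets1, Ets2, Elk1, Elk3, Elf3 and Ehf, were examined in sorted cells of mouse thyroid tumors. They were taken by gene symbol, and all 10 were found among the 35027 genes of the deposited table. RNA-seq was available for 3 libraries of tumors expressing YAPS127A (YAP) and 3 libraries of tumors expressing YAPS127A together with BrafV600E (BrafYAP). YAPS127A is a form of the HIPPO pathway effector YAP that stays in the nucleus. BrafV600E is an active form of the kinase that feeds the MAPK cascade ending in ERK. The comparison asks which ETS transcripts differed when mutant Braf was added to nuclear YAP.

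All mice carried a Cre transgene that acts in thyroid follicular cells, the RIK-rtTA allele that reports Cre activity with the Kate fluorescent protein, and the dox-inducible tetO-YAPS127A transgene, and the BrafYAP mice carried LSL-Braf in addition, so that BrafV600E was made at the endogenous locus. Both groups received dox chow from 4 weeks of age per the labels, while the results text of the study gives a later start. About 20000 Kate-positive cells were sorted per library. The YAP libraries (replicates 1, 2 and 3) were each a pool of 3 tumors, and the BrafYAP libraries (replicates 1, 2 and 6) were each 1 tumor, so genotype and pooling cannot be told apart. The study describes YAP tumors as poorly differentiated and most BrafYAP tumors as partly or fully anaplastic. Tumor type can therefore not be told apart from genotype here, and its part in the differences was not tested. No tumor with BrafV600E alone and no normal thyroid is in the comparison. The p-values measure the spread between these libraries.

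ETS factors share a DNA-binding domain that recognizes a GGAA core, and many of them are phosphorylated by ERK or are transcribed in response to it. Etv1, Etv4 and Etv5 form the PEA3 subfamily, whose transcription is held back by the repressor CIC until ERK signaling relieves it. Elk1 and Elk3 act with the serum response factor SRF at immediate early genes, Ets1 and Ets2 are phosphorylated by ERK, Etv6 is a repressor, and Elf3 and Ehf belong to the epithelium-specific branch of the family.

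Promoters of Etv1, Etv5 and Ets2 are shown because these genes, with Etv4, were higher in every BrafYAP library than in any YAP library. Windows of 300 bases, from 250 before to 50 after a transcription start, were taken from RefSeq on GRCm38.p6, where 7 of the 10 genes had 9 windows. No window was available for Etv4, Ets1 and Ehf. Capitals mark GGAAGT, an extended ETS core, and TGAATGG, the first bases of an octamer bound by CIC, each on either strand and without overlap between the 2 motifs. The second motif was chosen after the sequences were seen.
Etv1, chr12:38779832-38780131, plus strand: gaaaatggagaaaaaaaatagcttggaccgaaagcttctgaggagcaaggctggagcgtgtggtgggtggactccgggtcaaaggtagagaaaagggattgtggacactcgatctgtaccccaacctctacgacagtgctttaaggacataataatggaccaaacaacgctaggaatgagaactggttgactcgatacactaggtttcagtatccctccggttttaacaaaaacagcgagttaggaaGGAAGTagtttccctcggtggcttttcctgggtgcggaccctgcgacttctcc
Etv5, chr16:22438319-22438618, minus strand: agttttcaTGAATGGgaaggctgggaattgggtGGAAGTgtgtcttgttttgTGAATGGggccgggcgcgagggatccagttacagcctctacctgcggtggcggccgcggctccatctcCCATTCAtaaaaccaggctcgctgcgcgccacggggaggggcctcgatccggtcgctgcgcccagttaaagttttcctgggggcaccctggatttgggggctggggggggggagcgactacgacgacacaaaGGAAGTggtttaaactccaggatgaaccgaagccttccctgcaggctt
Ets2, chr16:95702157-95702456, plus strand: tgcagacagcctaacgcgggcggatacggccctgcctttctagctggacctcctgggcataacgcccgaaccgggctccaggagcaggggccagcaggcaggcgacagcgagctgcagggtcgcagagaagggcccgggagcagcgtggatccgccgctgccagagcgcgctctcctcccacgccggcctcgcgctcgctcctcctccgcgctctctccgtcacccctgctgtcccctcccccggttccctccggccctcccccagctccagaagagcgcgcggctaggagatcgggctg
In the Etv5 window, which belongs to the more downstream of its 2 starts, TGAATGG was found 3 times, at -242, -198 and, on the opposite strand, -130 from the start, and GGAAGT was found at -217 and 3. The Etv1 window, which belongs to the more upstream of its 2 starts, held GGAAGT at -3, across the start, and the Ets2 window held neither motif. The second windows of Etv1 and Etv5, which are not shown, held neither motif. TGAATGG was present in 3.59% of the 32851 windows of all genes and GGAAGT in 23.8%, against 1 and 2 of the 9 windows of the ETS genes. The full CIC octamers TGAATGAA, TGAATGGA, TCAATGAA and TCAATGGA (3.84% of all windows), the ETS site CCGGAAGT (3.89%), the AP-1 site TGACTCA (5.20%), the TEAD site ACATTCC (3.85%) and the CArG box of SRF (1.63%) were in none of the 9 windows. These matches describe the letters of a short window and are not binding data.

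The libraries held 26.2 to 36.9 M estimated reads. Across the genes tested, BrafYAP replicates 1 and 2 correlated at 0.97 (Pearson, log2 values), while BrafYAP replicate 6 correlated with them at 0.84 and 0.82 and with the YAP libraries at 0.73 to 0.80, so results that rest on it are given with and without it. Epithelial markers were detected in every library, with 8 of 8 genes above 0 and summed levels of 7544 to 23228 TPM by exonic length in YAP and 9489 to 22928 in BrafYAP. Among 10 thyroid genes, summed at 199 to 415 TPM in YAP and 137 to 470 in BrafYAP, Tshr was listed at 0 in BrafYAP replicates 1 and 2 and reached 7.25 TPM in BrafYAP replicate 6. The thyroid genes did not move together, with 4 of the 9 tested higher and 5 lower in BrafYAP on average. Pax8 was at 183, 109 and 75.9 TPM in BrafYAP replicates 1, 2 and 6. Hhex was at 4.28 to 8.93 TPM in YAP and 18.0 to 93.7 in BrafYAP, without overlap. Leukocyte markers were present in the sorted cells in both groups, at 12526 to 43004 TPM summed over 10 genes in YAP and 3408 to 13101 in BrafYAP, mostly from Lyz2, and 8 of the 9 tested were lower in BrafYAP on average, 5 of them with an unadjusted p under 0.05 (10.5% of all genes tested were past it and lower). Endothelial markers summed to 9.74 to 38.9 TPM in YAP and 8.23 to 102 in BrafYAP, with the highest value in BrafYAP replicate 6, and fibroblast markers to 133 to 258 and 143 to 284 TPM. Genes of the response to tissue dissociation summed to 5137 to 9317 TPM in YAP and 13920 to 16504 in BrafYAP, with no overlap between the groups. In bulk RNA, fewer cells of a type and less RNA per cell cannot be told apart, and the part of these markers in the ETS results was not tested.

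Etv1, Etv4, Etv5 and Ets2 were higher in every BrafYAP library than in any YAP library, by 2.51-fold to 6.84-fold. Elk1, Elk3 and Ehf were higher on average with overlapping groups, and Etv6, Ets1 and Elf3 were near equal between the genotypes. Values below are scaled reads, that is, the deposited values with the division by gene length undone, and folds are from limma on log2(scaled reads + 1). Of 16832 genes tested, 0 (0%) had a Benjamini-Hochberg adjusted p under 0.05 and the smallest was 0.0517 (also 0 genes with voom), while 3404 had an unadjusted p under 0.05. None of the 10 ETS genes passed the adjusted threshold. Unadjusted, 4 of 10 were past 0.05, all higher in BrafYAP, against a background of 9.68% of all genes tested that were past it and higher and 10.5% that were past it and lower. The same 4 genes did not overlap between the groups, against 11.7% of all genes with higher and 17.1% with lower non-overlapping values. The median log2 fold change was 1.02 over the 10 genes and -0.12 over all genes tested. An exact permutation test of a single gene with 3 against 3 libraries cannot give a two-sided p below 0.10.

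**Figure D1:**
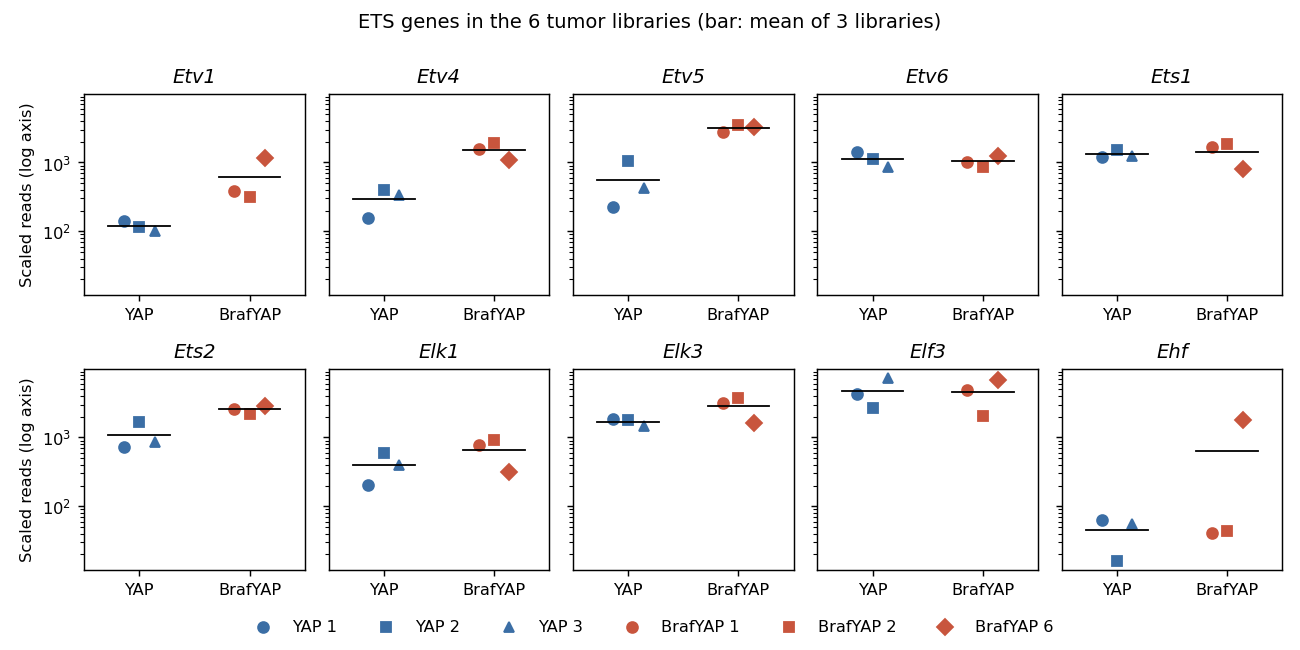
Scaled reads (log axis) of the 10 ETS genes in the 3 YAP (blue) and 3 BrafYAP (red) libraries, with marker shapes for the replicate and a black bar at the mean of 3 libraries. The red points of Etv1, Etv4, Etv5 and Ets2 all sit above the blue points, and the high mean of Ehf comes from BrafYAP replicate 6 alone.

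The PEA3 genes had the highest folds among the ETS genes that did not overlap. Etv5 (chr16:22381309-22439719, minus strand, mm10) was at 224, 1035 and 429.5 scaled reads in YAP replicates 1, 2 and 3 and at 2796, 3485 and 3284 in BrafYAP replicates 1, 2 and 6. Its lowest BrafYAP library was thus well above its highest YAP library, and YAP varied more than BrafYAP (563 ± 422 against 3189 ± 354, SD, n = 3 each). The log2 fold change of Etv5 was 2.77 (SE 0.54, 95% interval 1.51 to 4.04), which is 6.84-fold, with a limma p of 0.00117 and an adjusted p of 0.0880.

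Etv4 (chr11:101769742-101785371, minus strand) was at 155, 396 and 334 scaled reads in YAP and at 1579, 1941 and 1097 in BrafYAP. The groups were separate, with the lowest value in YAP replicate 1 and the highest in BrafYAP replicate 2. Its log2 fold change was 2.45 (SE 0.44, 95% interval 1.42 to 3.47), or 5.45-fold, with a limma p of 0.000711 and an adjusted p of 0.0818, and it ranked 144 by p among all genes tested, ahead of Etv5 at 223.

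Etv1 (chr12:38779380-38870484, plus strand) was the least abundant of the PEA3 genes in TPM by exonic length. In scaled reads it was at 142, 117 and 100.03 in YAP and 381, 313 and 1161 in BrafYAP. The YAP libraries were close to one another, and BrafYAP replicate 6 was far above the other BrafYAP libraries. The log2 fold change was 2.12 (SE 0.53, 95% interval 0.87 to 3.36), with a limma p of 0.00492 and an adjusted p of 0.110. Without BrafYAP replicate 6 it was 1.53, with an unadjusted p of 0.00306.

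Per exonic length, which allows genes to be compared, the PEA3 genes together made 9.90, 32.3 and 19.9 TPM in YAP and 109, 137 and 110.0 TPM in BrafYAP. Their make-up did not separate the groups. Etv5 was 47.3 to 64.9% of the PEA3 sum in YAP and 55.9 to 64.5% in BrafYAP, Etv4 was 32.8 to 48.9% and 28.5 to 41.7%, and Etv1 was 2.26 to 9.30% and 1.57 to 7.03%. The total therefore differed between genotypes while the shares overlapped.

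Ets2 (chr16:95702075-95721051, plus strand), which encodes an activator whose N-terminal region is an ERK substrate, was at 737, 1662 and 847 scaled reads in YAP and 2617, 2212 and 2828 in BrafYAP. The groups did not overlap, and YAP replicate 2 was the closest to BrafYAP. The log2 fold change was 1.33 (SE 0.37, 95% interval 0.46 to 2.19), or 2.51-fold, with a limma p of 0.00814 and an adjusted p of 0.128. Its relative Ets1 (chr9:32636221-32757820, plus strand) was at 1218, 1518 and 1250.3 in YAP and 1698, 1826 and 802 in BrafYAP, so that BrafYAP held both the highest and the lowest library. The Ets1 log2 fold change was 0.04 (SE 0.38, 95% interval -0.85 to 0.92), with a limma p of 0.928, and it was 0.41 without BrafYAP replicate 6 and -0.18 without BrafYAP replicate 2.

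The ternary complex factors Elk1 and Elk3 were higher in BrafYAP replicates 1 and 2 than in all YAP libraries, but not in BrafYAP replicate 6. Elk1 (chrX:20933395-20950608, minus strand) was at 205, 602 and 401 scaled reads in YAP and 781, 907 and 309.9 in BrafYAP, with a log2 fold change of 0.72 (SE 0.56, 95% interval -0.59 to 2.02) and a limma p of 0.237. Elk3 (chr10:93247414-93311135, minus strand), which without ERK input acts as a repressor, was at 1861, 1794 and 1453 in YAP and 3133, 3732 and 1598 in BrafYAP, with a log2 fold change of 0.65 (SE 0.37, 95% interval -0.23 to 1.52) and a limma p of 0.124. Without BrafYAP replicate 6, the log2 fold changes were 1.20 for Elk1 (unadjusted p of 0.0442) and 1.01 for Elk3 (unadjusted p of 0.00910). Other libraries moved them the other way, with 0.30 for Elk1 without YAP replicate 1 (unadjusted p of 0.600) and 0.40 for Elk3 without BrafYAP replicate 2 (unadjusted p of 0.367). Elk1 shares 8887 bases of its span with Uxt on the same strand, and Elk3 shares 19658 with Cdk17 on the opposite strand. The counting is not stated to use strand, so reads in the shared bases could belong to either gene.

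The epithelium-specific factors lay at opposite ends of the range of levels. Elf3 (chr1:135253575-135258568, minus strand) was the most abundant of the 10 genes in TPM by exonic length. In scaled reads it was at 4319, 2664.5 and 7269.9 in YAP and 4965, 2044 and 6838 in BrafYAP. The groups spanned nearly the same range, and its log2 fold change was -0.09 (SE 0.55, 95% interval -1.38 to 1.20), with a limma p of 0.874. Ehf (chr2:103263433-103303278, minus strand) was at 63.7, 15.9 and 55.6 scaled reads in YAP and 41.0, 43.2 and 1812 in BrafYAP. BrafYAP replicates 1 and 2 lay inside the range of YAP, and the log2 fold change of 1.92 (SE 1.46, limma p of 0.227) was 0.12 without BrafYAP replicate 6. Elf5, a close relative of Ehf that is no member of the 10, was also high in that library alone, at 54.2 scaled reads against 0 to 2.06 in the other 5 libraries.

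Etv6 (chr6:134035700-134270158, plus strand), a repressor, was at 1422, 1131 and 872 scaled reads in YAP and 1003, 868 and 1248 in BrafYAP. The groups overlapped along most of their range, with a log2 fold change of -0.12 (SE 0.31, 95% interval -0.85 to 0.60) and a limma p of 0.701. The signs of Etv6 and Elf3 turned under a median-ratio rescaling of the libraries, which moved the median of all genes tested from -0.12 to 0.01 and left Etv6 at 0.0026 and Elf3 at 0.036. Relative to the median of all genes, both were within their error of no difference under either scaling.

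**Figure D2:**
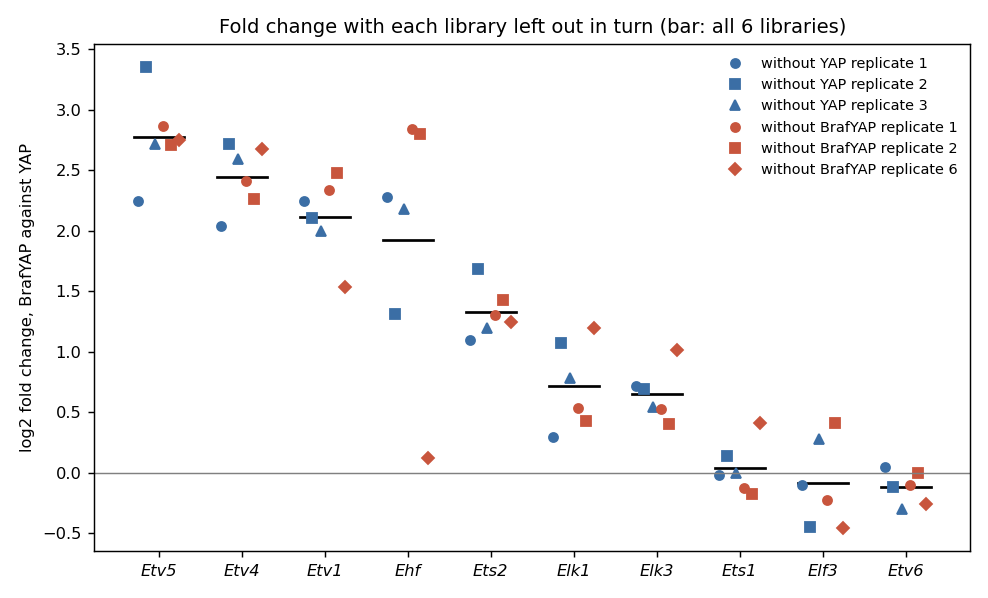
log2 fold change of BrafYAP against YAP for each of the 10 ETS genes with all 6 libraries (black bar) and with each library left out in turn (blue, a YAP library left out; red, a BrafYAP library left out). The 5 highest bars and those of Elk1 and Elk3 stay above 0 in all 6 fits, Ehf drops from 1.92 to 0.12 without BrafYAP replicate 6, and Ets1, Elf3 and Etv6 cross 0.

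In each of the 6 fits with 1 library left out, Etv1, Etv4, Etv5 and Ets2 were higher in BrafYAP with an unadjusted p under 0.05. Of all genes, 6.42 to 14.1% were past it and higher in these fits. Groups that do not overlap with all libraries cannot overlap once 1 is left out, so overlap was no check for these genes. Etv5 ranged from 2.25 without YAP replicate 1 to 3.35 without YAP replicate 2 on the log2 scale, Etv4 from 2.04 to 2.71, Etv1 from 1.53 to 2.48 and Ets2 from 1.10 to 1.68. Without BrafYAP replicate 6, 6 of the 10 genes were past the unadjusted threshold and 7 did not overlap, against 9.43% of all genes that were past it and higher and 19.0% that were higher without overlap. The additional genes were Elk1 and Elk3, and Ets1 for the overlap alone. None of the 10 passed the adjusted threshold in any of these fits.

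The order of the genes by level also differed between the groups. In YAP, mean TPM by exonic length ran from Elf3 at 188 ± 100 (SD, n = 3) and Elk3 at 32.3 ± 3.11 through Etv6 (16.5), Ets2 (16.1), Ets1 (13.5), Etv5 (11.7), Etv4 (8.22) and Elk1 (6.44) to Etv1 (0.778) and Ehf (0.708). In this order only Elf3 and Elk3, Elk3 and Etv6, and Elk1 and Etv1 were neighbors whose libraries did not overlap. In BrafYAP, Elf3 stayed first at 186 ± 95.4, and Etv5 came second at 69.7 ± 8.45, followed by Elk3 (55.8), Etv4 (44.6), Ets2 (39.6), Etv6 (15.6), Ets1 (15.3), Elk1 (11.1), Ehf (10.1) and Etv1 (4.14). The place of Ehf rests on BrafYAP replicate 6 (28.8 TPM), since it was at 0.655 and 0.707 in replicates 1 and 2, below Etv1 at 2.55 and 2.15. The neighbors without overlap were Elf3 and Etv5, and Ets2 and Etv6. Etv5 moved from rank 6 to rank 2 and Etv4 from rank 7 to rank 4. Elf3 made 43.6 to 75.5% of the summed level of the 10 genes in YAP and 22.2 to 52.7% in BrafYAP, and these ranges overlapped.

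**Figure D3:**
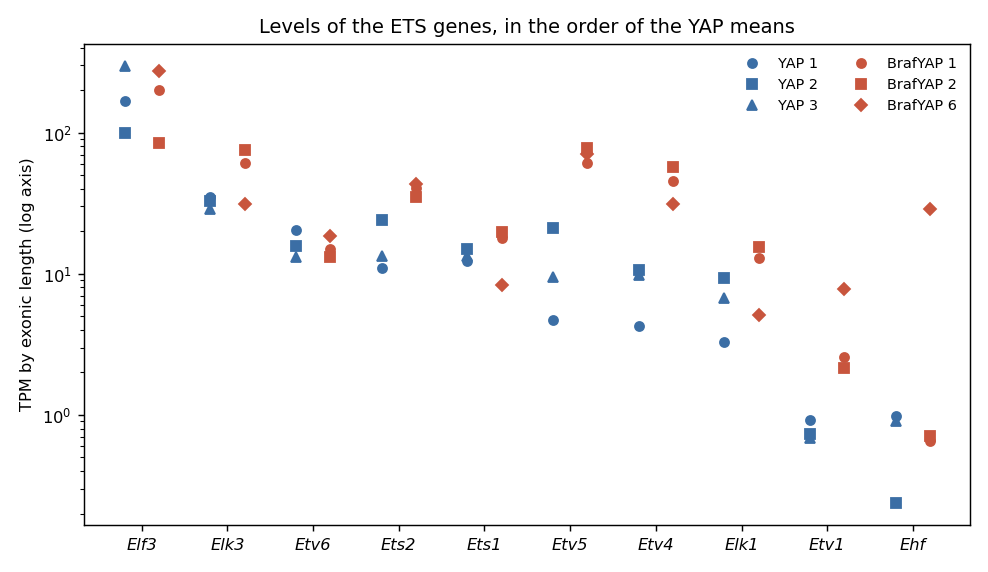
TPM by exonic length (log axis) of the 10 ETS genes in each library (blue, YAP; red, BrafYAP; marker shapes give the replicate), ordered by the YAP mean. Elf3 is the highest gene in all 6 libraries, and Etv5 is below Elk3 in every YAP library but above it in all BrafYAP libraries except replicate 1 (60.8 against 61.4 TPM).

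The rest of the ETS family was counted for comparison, and the difference from the 10 genes was not tested. Of 17 listed by name, 14 were found in the table, 11 passed the filter on low values, and 4 were higher and 7 lower in BrafYAP, with a median log2 fold change of -0.23. By the unadjusted threshold 1 was higher and 2 were lower, against 9.68% and 10.5% of all genes tested, and 1 was higher and 3 were lower without overlap, against 11.7% and 17.1%, so these counts were near the background. Erf, an ETS repressor that ERK drives out of the nucleus, was at 65.8, 155 and 162 scaled reads in YAP and 479, 654 and 335 in BrafYAP. The groups were separate, with a log2 fold change of 1.99 (SE 0.47), a limma p of 0.00356 and an adjusted p of 0.106.

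The genes that were lower include factors known from blood cells. Fli1, which is active in blood and endothelial cells, was at 337, 356 and 195 scaled reads in YAP and 122, 76.9 and 166 in BrafYAP, and the groups did not overlap. The log2 fold change of Fli1 was -1.29 (SE 0.43, limma p of 0.0190). Etv3, a repressor, was at 759, 921 and 1181 in YAP and 588, 428 and 648 in BrafYAP, and differed by -0.78 on the log2 scale (SE 0.32, limma p of 0.0417). The lowest fold was that of Spib, a factor of lymphoid cells, at -2.64 (SE 1.17, limma p of 0.0579), with 77.1, 56.3 and 507 scaled reads in YAP and 8.86, 8.63 and 98.6 in BrafYAP. The Spib difference was -1.66 without YAP replicate 3 (unadjusted p of 0.198) and -3.75 without BrafYAP replicate 6 (unadjusted p of 0.00608). Elf4 was lower than Spib without YAP replicate 3 (-2.26 against -1.66), BrafYAP replicate 1 (-2.69 against -2.09) or BrafYAP replicate 2 (-2.93 against -2.07). Leukocyte markers were also lower in BrafYAP, as given above, and their part in these values was not tested. Spi1, the myeloid factor PU.1, was at 204, 3714 and 542 scaled reads in YAP and 2417, 2024 and 849.8 in BrafYAP (log2 difference of 1.11, SE 1.01, limma p of 0.304). The Spi1 difference was 0.18 without YAP replicate 1 (unadjusted p of 0.843) and 2.27 without YAP replicate 2 (unadjusted p of 0.0102).

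Some ETS genes were low or at 0 in part of the libraries. Elf4 was at 551, 457 and 385 scaled reads in YAP and 226, 317 and 15.1 in BrafYAP, without overlap, and its log2 fold change of -2.13 (SE 1.06, limma p of 0.0820) was -0.78 without BrafYAP replicate 6. Erg, an endothelial factor, was too low to test, at 9.25, 4.89 and 3.09 scaled reads in YAP and 0, 0.785 and 24.9 in BrafYAP. Its only higher value was in the library with the highest endothelial markers. Spic was listed at 0 in 5 of 6 libraries and at 10.3 scaled reads in YAP replicate 3.

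**Figure D4:**
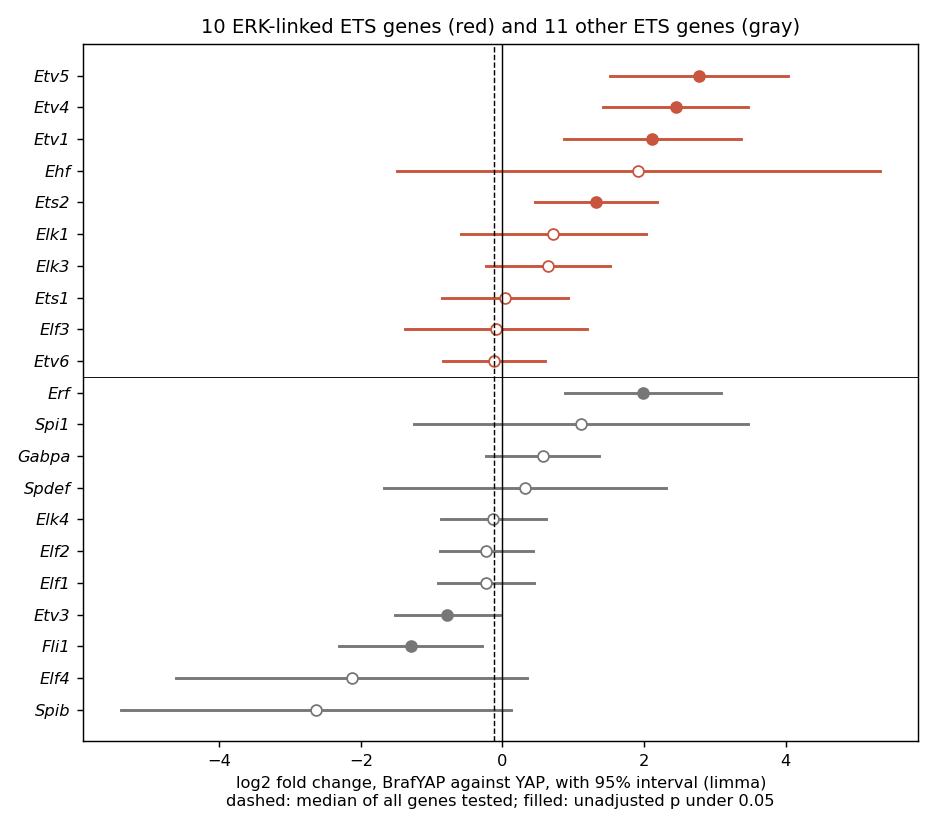
log2 fold change of BrafYAP against YAP with its 95% interval (limma, log2(scaled reads + 1)) for the 10 ERK-linked ETS genes (red) and the 11 other ETS genes tested (gray), with filled points where the unadjusted p was under 0.05 and a dashed line at the median of all genes tested (-0.12). The intervals of Etv5, Etv4, Etv1, Ets2 and Erf lie above 0, and those of Fli1 and Etv3 lie below it.

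Transcripts of the partners and regulators of these factors were examined next. Of 10 partner and regulator genes, 8 were tested, and Mrtfa and Mrtfb, which the table lists under older symbols, had no read estimate. By the unadjusted threshold 0 of 8 were past 0.05 with limma, 2 were higher and 6 lower on average, and 2 were lower without overlap, against 17.1% of all genes tested. Cic, the repressor of the PEA3 genes, was at 637, 863 and 1527 scaled reads in YAP and 1496, 1591 and 1022 in BrafYAP. These ranges overlapped, and its log2 fold change was the highest of the list, at 0.51 (SE 0.39, 95% interval -0.42 to 1.44, limma p of 0.236). Atxn1, which encodes a CIC cofactor, had the lowest, at -1.08 (SE 0.48, 95% interval -2.22 to 0.06, limma p of 0.0596), with 655, 417 and 573 scaled reads in YAP and 348, 377 and 125 in BrafYAP.

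Genes that are commonly read as ERK output were listed for reference. Of 8 feedback and target genes, 8 were higher in BrafYAP on average, with a median log2 fold change of 1.94, and none passed the adjusted threshold. Unadjusted, 5 were past 0.05 (9.68% of all genes tested were past it and higher), and 7 were higher without overlap (11.7% of all genes). Dusp6, the ERK phosphatase, was at 1372, 6699 and 3246 scaled reads in YAP and 18959, 16699 and 14354 in BrafYAP (log2 difference of 2.42, SE 0.55, limma p of 0.00294, adjusted p of 0.102). Spry4, a feedback inhibitor of receptor signaling, was at 41.6, 108 and 63.5 in YAP and 408, 279 and 571 in BrafYAP (log2 difference of 2.59, SE 0.47, limma p of 0.000821, adjusted p of 0.0818). Dissociation genes were higher in BrafYAP on average for 10 of 12, 6 of them with an unadjusted p under 0.05 (9.68% of all genes tested). These 6 were Egr1, Jun, Junb, Ier2, Hspa1a and Hspa1b, and among them Egr1 and Jun are also targets of ERK signaling. The heat-shock genes Hspa1a and Hspa1b had the highest folds of the list. Their log2 differences were 3.32 (limma p of 0.0166) and 3.25 (limma p of 0.0120). Other genes of the list did not follow, with a log2 difference of 0.34 for Fos (limma p of 0.322). The 2 that were lower were Fosb at -0.57 (limma p of 0.137) and Zfp36 at -0.29 (limma p of 0.422). The part of the dissociation response in these values was not tested.

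**Figure D5:**
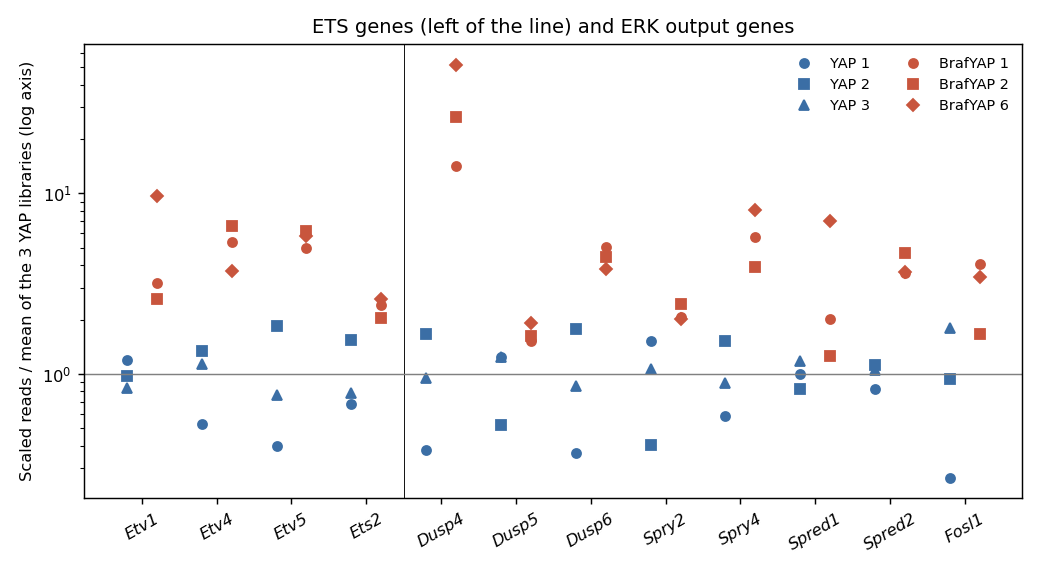
Scaled reads of each library divided by the mean of the 3 YAP libraries (log axis) for Etv1, Etv4, Etv5 and Ets2 (left of the vertical line) and for 8 ERK output genes (right of it). Blue marks YAP and red BrafYAP, marker shapes give the replicate, and for each gene except Fosl1 all 3 red points are above all 3 blue points.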

How the data were processed

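RNA-seq of Kate-positive thyroid tumor cells was amplified with 12 cycles of SMART-Seq and 8 cycles of library PCR and read as 50-nt pairs. Alignment by the authors was to mm10 with STAR 2.6.1d. Partek E/M on Ensembl release 95 then gave the TPM they deposited, with 0.0001 added. The deposited TPM are divided by genomic span, introns included, and sum to 181218 per library.

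The value of 1 read was estimated per library from values under 200 reads (71.5 to 75.7% were whole within 0.05, against 10% by chance), using GENCODE M21 spans of 34640 genes at one locus. Estimated reads are (value - 0.0001) × span / step. Scaled reads keep the authors' scaling between libraries. TPM by exonic length was recomputed from estimated reads. E/M can split reads between genes, PCR reads carry no molecular identifier, and depth is the total of estimated reads.

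Genes with a mean of at least 10 scaled reads were compared by limma 3.58.1 in R 4.3.3 (eBayes with trend, two-sided) on log2(scaled reads + 1), adjusted over all genes at 0.05. Fold changes of low genes are understated on this scale. Samples were grouped by title, and the labels give no batch. Motifs were searched with Python, and the fit was tested on simulated data. Pooling follows the labels, whereas the study's methods give 1 tumor per replicate. The ETS genes and all lists were chosen with earlier results of these data known. All 10 are named, and other ETS and partner genes are named where the unadjusted p was under 0.05, at the extremes of a list or at 0. Elf4, Elf5, Spi1, Egr1, Jun, Junb, Ier2, Hspa1a, Hspa1b, Fos, Fosb, Zfp36, Pax8 and Hhex were named after their values were seen. Alternatives were other scales, normalizations, pseudocounts, filters, weights, voom, a replicate block and leaving out each library. The values of some listed genes are not reported here.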

Additional observations from a re-analysis of the deposited data

How the results depend on the processing

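The count of genes past an adjusted p of 0.05, 0 in the reported fit, was 18 on the deposited values, 63 on TPM by exonic length, 55 on estimated reads scaled to library totals, 62 after quantile normalization, 45 with a pseudocount of 10, 20 without a trend and 4653 with array weights, and it was 0 under the other alternatives that kept all libraries. With 1 library left out it ranged from 0 to 142. It was 3 without YAP replicate 2 and 142 without BrafYAP replicate 6. Array weights went from 0.221 (BrafYAP replicate 6) to 4.81 (YAP replicate 3), and only with them did ETS genes pass the adjusted threshold, 6 of 10 (Etv1, Etv4, Etv5, Ets2, Elk1 and Elk3). The background in that fit was 4653 of 16832 genes tested. The count of the 10 genes past an unadjusted p of 0.05 was 3 to 6 over all alternatives, and 4 to 6 with 1 library left out. With array weights it was 6, where 6916 of 16832 genes were past it. With 1 library left out, 6.42 to 14.1% of all genes were past it and higher and 7.15 to 11.5% were past it and lower. On the deposited values 6 of the 10 passed the filter, Etv1 not among them. The count among other ETS genes, 3, was 6 of 11 with array weights, against the 6916 of 16832 genes given above, and 2 to 4 with 1 library left out. The median log2 fold change on the deposited values was 0.66, over the 6 genes that passed the filter there. Under the alternatives that tested all 10 genes, their median stayed between 0.91 and 1.19, and both ends came from fits with 1 library left out. The sign turned for genes near 0, namely Etv6 (0.0026) and Elf3 (0.036) after median-ratio rescaling, Etv6 (0.057) with array weights, and Elk4 (0.14) and Spdef (-0.50) with the replicate block. With 1 library left out, Etv6 ranged from -0.30 to 0.049, Ets1 from -0.18 to 0.41, Elf3 from -0.46 to 0.41, Elk4 from -0.35 to 0.034 and Spdef from -0.31 to 1.08. The cause was not tested.

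The titles share replicate numbers 1 and 2 between groups, with nothing to pair the samples, and deviations of same-numbered libraries correlated at -0.03 and 0.05. With the replicate block, which leaves 1 residual degree of freedom, 3 of the 10 genes were past the unadjusted threshold (Ets2 at p 0.0943 was not), and 3 other ETS genes were past it. Of all 16832 genes, 2531 were past it and 0 passed the adjusted threshold. The median of the 10 genes was 1.01. Depth was lowest for Etv1 and Ehf, with at most 139 and 62.0 estimated reads in the YAP libraries, and 3 libraries a group limit the precision of every value.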
